A study of Mus musculus with 4 samples.

Results

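The genes of the cytoplasmic ribosomal proteins were taken as the rows of the count table whose symbol has the form of an Rpl or Rps gene with its number, together with Rplp0, Rplp1, Rplp2 and Rpsa, if at least 1 read fell on them in any library. Symbols with -ps, which mark pseudogenes, were left out. This gave 84 genes of the 19894 with a read, among 24527 symbols listed, and 85 symbols matched, of which Rpl10l had no read. Of these genes, 51 carry a large-subunit symbol and 33 a small-subunit symbol. GENCODE annotates 82 of them as protein coding and Rpl32l and Rps4l as processed pseudogenes without a coding sequence, and both were kept for their symbols. Paralogs, close relatives of another gene among them, made up 7 and the other 77 are called canonical here.

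RNA of B16F10 cells, a mouse melanoma line of C57BL/6 origin, was sequenced from 4 sources: 2D monoculture (the library named B16 control), 2D co-culture with NIH/3T3 mouse fibroblasts, hanging-drop spheroids made with NIH/3T3 cells, and tumors grown under the skin of 1-year-old female C57BL/6 mice. For the sorted cells, the methods describe the NIH/3T3 cells of the spheroids, but not those of the co-culture, as red fluorescent. All 4 are labelled wild type. The methods describe B16F10 cells that carry a cytoplasmic green fluorescent protein and were sorted alive from the cultures and tumors, whereas the label of the tumor library describes snap-frozen tumor. With a single library for each condition, although the methods state n = 3 for the RNA isolation, the spread between replicates is unknown and no test was made. The libraries held between 118896900 and 150028663 reads on genes. Levels are CPM, a gene's share of its library's reads brought to one common scale, after TMM scaling, and log2 ratios of groups of genes were taken after adding 1 CPM to each value. All intervals are 95% intervals that cover counting error only.

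The tumor library carried RNA of other cells. The summed level of 12 skeletal muscle markers was 6480 CPM there and between 10.1 and 17.6 CPM in the cultures, and that of 12 myeloid markers was 2360 CPM against 11.2 to 30.0 CPM. The 10 fibroblast markers summed to 3200 CPM in the tumor, 683 CPM in the co-culture and 19.7 and 37.4 CPM in monoculture and spheroid. Col1a2 alone had 514.0 CPM in the co-culture, and Pdgfrb alone had 11.02 and 23.54 CPM in monoculture and spheroid. The median fibroblast marker had 72.5, 8.1, 0.6 and 0.587 CPM in tumor, co-culture, monoculture and spheroid. The 8 melanocyte markers summed to between 11400 and 20100 CPM, with no marker at 0 in any library. In such libraries, fewer cells of a type and less RNA per cell cannot be told apart.

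The ribosome is built of ribosomal RNA and about equal numbers of each ribosomal protein, and its genes are therefore known for being transcribed at matched levels in all cells. Their mRNAs are short and abundant, and most of them begin with a C followed by a run of pyrimidines, the 5′ terminal oligopyrimidine or TOP motif, through which growth signals of the mTOR pathway control their translation. Some ribosomal proteins also act away from the ribosome. Rpl5 and Rpl11, for example, bind Mdm2 when assembly of ribosomes fails, and a few paralogs replace their canonical protein in particular tissues.

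Pyrimidine runs of at least 8 bases lay at many, but not most, of the annotated start sites. The RefSeq windows of build GRCm38.p6 held 63 of the 84 genes, and the longest run of C and T that had a base in the window from 10 bases before to 12 bases after the annotated start, measured in full, was at least 8 bases long in 30 of them (47.6%), against 4431 of 26962 other genes (16.4%). The median longest run was 7 bases among the 63 and 5 bases among the other genes. Where a gene had several annotated starts, the start with the longest run was kept, for members and other genes alike. The count thus depends on the limit of 8 bases, on how many starts a gene has and on annotated starts, which were not mapped in these libraries. The run was read on the strand of the gene only. It was searched for as letters, so a match is a description and not a site of regulation. The 8 windows below are shown as examples of long and short runs among genes described further on; each covers 60 bases before to 20 bases after the start, and the longest run is in capitals.

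Rpl35 (chr2:39005112-39005191, minus strand): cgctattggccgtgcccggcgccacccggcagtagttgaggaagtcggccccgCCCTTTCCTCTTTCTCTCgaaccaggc
Rpl7a (chr2:26910747-26910826, plus strand): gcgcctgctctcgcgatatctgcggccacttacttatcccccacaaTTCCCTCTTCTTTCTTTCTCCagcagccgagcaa
Rpl22l1 (chr3:28805448-28805527, plus strand): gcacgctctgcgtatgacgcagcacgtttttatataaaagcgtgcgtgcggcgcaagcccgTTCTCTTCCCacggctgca
Rps6 (chr4:86857348-86857427, minus strand): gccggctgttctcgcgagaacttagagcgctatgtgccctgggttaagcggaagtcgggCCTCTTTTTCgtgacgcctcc
Rplp2 (chr7:141447591-141447670, plus strand): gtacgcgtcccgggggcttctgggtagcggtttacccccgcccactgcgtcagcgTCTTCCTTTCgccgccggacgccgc
Rpl4 (chr9:64173327-64173406, plus strand): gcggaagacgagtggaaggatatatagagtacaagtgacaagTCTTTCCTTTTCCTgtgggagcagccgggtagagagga
Rps4x (chrX:102189372-102189451, minus strand): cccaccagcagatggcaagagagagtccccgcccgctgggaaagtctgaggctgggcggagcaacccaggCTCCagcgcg
Rpl3l (chr17:24727766-24727845, plus strand): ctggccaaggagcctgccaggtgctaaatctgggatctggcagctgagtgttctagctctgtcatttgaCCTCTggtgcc

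Rpl7a had the longest run of all 63, with 21 bases, and Rpl35 had 18. Rpl4 had 14 bases, Rpl22l1, Rps6 and Rplp2 had 10, Rpl3l had 5 and Rps4x had 4. Among members with at least 10 CPM, the median log2 ratio of the co-culture to the monoculture was 0.77 for the 28 with a run of 8 bases or more and 0.78 for the 30 without. The same medians were 0.65 and 0.66 for the spheroid and 0.51 and 0.66 for the tumor.

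Ribosomal protein genes took a larger share of the reads in every condition than in the 2D monoculture. They held 3.438% of the monoculture's reads (4979441 reads), 5.231% of the co-culture's (6219089), 4.516% of the spheroid's (6775693) and 5.577% of the tumor's (7784924). The exact Clopper-Pearson interval of each share was no wider than 0.008 percentage points. The share was thus 1.52 times that of the monoculture in the co-culture, 1.31 times in the spheroid and 1.62 times in the tumor. This share depends on what else was sequenced in a library. Without the 171 other genes that were among the 100 with most reads in at least 1 library, the shares were 4.47%, 6.78%, 5.93% and 7.09% in the same order.

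Both subunits contributed. Genes of the large subunit held 1.31 times the reads of the small-subunit genes in the monoculture, 1.27 times in the co-culture, 1.29 times in the spheroid and 1.23 times in the tumor. Between any pair of libraries, the median log2 ratio of the 51 large-subunit genes and that of the 33 small-subunit genes lay within 0.09 of each other.

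**Figure D1:**
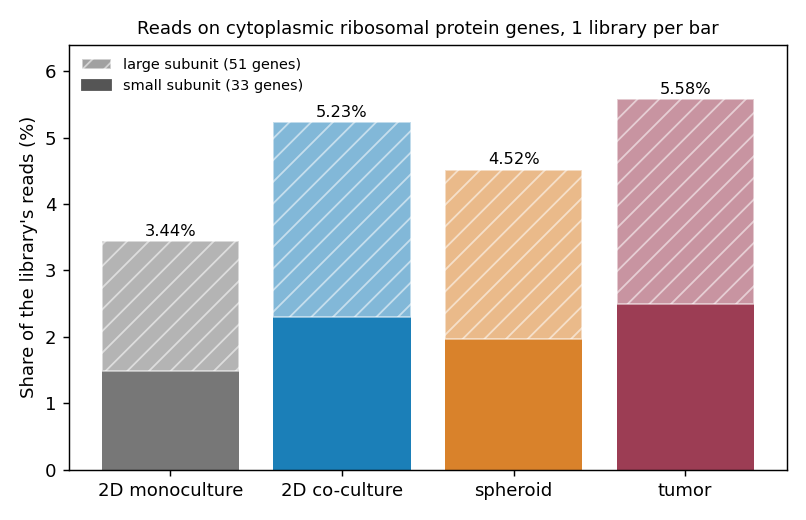
Share of each library's reads (%, vertical axis) that fell on the 84 ribosomal protein genes, with the 51 large-subunit genes hatched and the 33 small-subunit genes solid. Each bar is 1 library, and the counting intervals are too narrow to draw. The monoculture is lowest at 3.44% and the tumor highest at 5.58%.

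Gene by gene, nearly all members were higher than in the monoculture. In the co-culture 81 of 84 were above their monoculture level, in the spheroid 73 and in the tumor 76, whereas 50.8%, 53.7% and 44.6% of all 12728 genes that averaged at least 1 CPM, called the expressed genes below, were. The median log2 ratio to the monoculture was 0.74 in the co-culture, 0.65 in the spheroid and 0.61 in the tumor, or 1.68-fold, 1.56-fold and 1.53-fold. Over the expressed genes, the medians were 0.01, 0.05 and -0.14. Scaling by total counts moved the tumor's median over all genes to 0.09 and that of the members to 0.85, so the members stood above the other genes under both. None of 12 other settings turned these 3 medians below 0, and they ranged from 0.45 to 0.86 for the co-culture, from 0.16 to 0.77 for the spheroid and from 0.17 to 0.86 for the tumor. The lowest values came from removing the median log2 ratio of genes of like GC content and length. Removing it with classes of transcript length gave 0.46, 0.19 and 0.17, and with classes of coding length 0.45, 0.16 and 0.28.

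With TMM scaling, few members differed by more than 2-fold from the monoculture, and most differed by more than 1.5-fold in the co-culture. Against the monoculture, 6 members were more than 2-fold higher in the co-culture (3.79% of the expressed genes were), 9 in the spheroid (11.2%) and 3 in the tumor (14.8%), and no member was more than 2-fold lower (9.51%, 17.9% and 18.2%). The counts of higher members depended on the scaling: they were 21, 18 and 24 with the upper quartile, and 21 for the tumor with total counts. At 1.5-fold, 64 members were higher in the co-culture (12.6%), 50 in the spheroid (25.9%) and 45 in the tumor (23.0%), and 0, 1 and 0 were lower (19.3%, 27.1% and 32.3%). The 6 of the co-culture were Rpl21, Rpl31, Rpl36a, Rpl39, Rpl39l and Rps21, and the 9 of the spheroid were Rpl10, Rpl22, Rpl22l1, Rpl32l, Rpl37, Rpl39, Rps14, Rps20 and Rps27. The 3 of the tumor, Rpl39l, Rpl3l and Rps4l, were all paralogs. The spread of the members around their median was narrow. The SD of their log2 ratios was 0.40, 0.43 and 0.50 in the 3 comparisons, against 0.75, 0.99 and 1.5 over the expressed genes, and for the 77 canonical genes it was 0.24, 0.42 and 0.31.

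**Figure D2:**
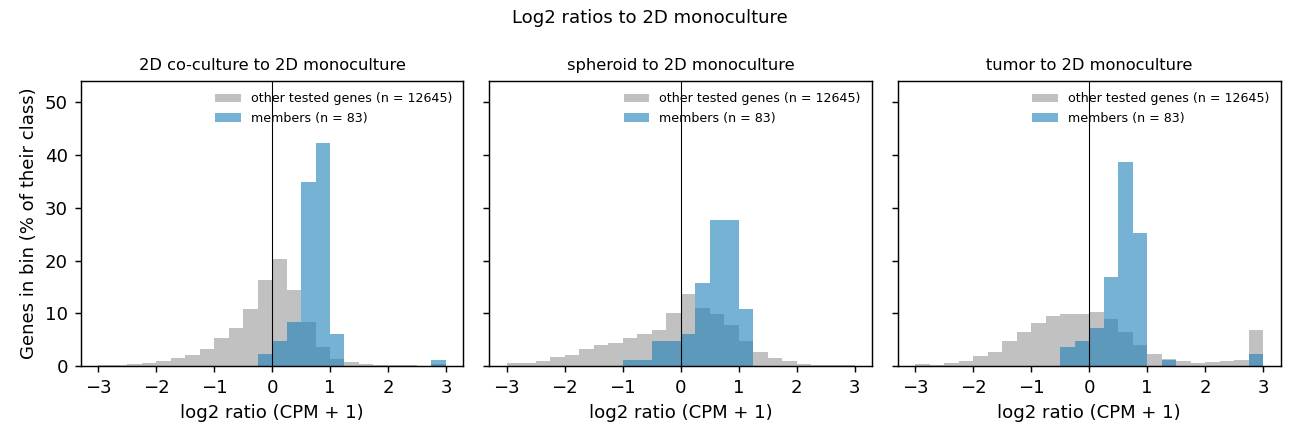
Distribution of log2 ratios to the 2D monoculture (horizontal axis, CPM + 1; the outermost bins also hold values beyond 3) for the 83 members among the expressed genes and for 12645 other genes, as a percentage of each class (vertical axis). The members form a narrow peak right of 0 in all 3 comparisons, around medians of 0.74, 0.65 and 0.61. Their position is relative to TMM scaling, and their medians stayed above 0 under the other scalings.

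Between the other 3 conditions, the members differed little as a group. The median log2 ratio of spheroid to co-culture was -0.11 (-0.01 over the expressed genes), that of spheroid to tumor 0.12 (0.08) and that of co-culture to tumor 0.18 (0.11). The sign of the last 2 turned with total counts, to -0.23 and -0.08. That of spheroid to tumor turned in other settings too, for example to -0.19 with the GC and coding length correction. Over the 12 other settings, the median of spheroid to tumor ran from -0.26 to 0.12. More than 2-fold lower in the spheroid than in the co-culture were 2 members (8.46% of all genes), Rpl30 and Rpl39l, and none was higher (9.54%). Against the tumor, the spheroid was more than 2-fold higher for 2 members (26.8%), Rplp2 and Rps27, and lower for 7 (27.6%), Rpl39l, Rpl3l, Rpl4, Rpl7, Rps3a1, Rps4l and Rps4x. Co-culture and tumor differed by that much for 5 members: Rpl39l, Rpl8 and Rps2 were higher in the co-culture (18.8%), and Rpl3l and Rps4l were higher in the tumor (20.9%). At 1.5-fold, 0 members were higher and 7 lower in the spheroid than in the co-culture (20% and 20.2%), 9 higher and 11 lower in the spheroid than in the tumor (37.1% and 35.2%), and 9 higher and 5 lower in the co-culture than in the tumor (32.4% and 28.2%). All of these comparisons share libraries and are not independent of each other.

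Most members shared their lowest library. Of the 77 members averaging 10 CPM or more, 64 (83.1%) had their lowest level in the monoculture, whereas 15.6% of 9588 genes at that level did. The spheroid was lowest for 9 and the tumor for 4, and no member was lowest in the co-culture. The highest level was in the co-culture for 34, in the spheroid for 29, in the tumor for 14 and in the monoculture for none. Under the other scalings, the monoculture was lowest for 63 to 66 members, but the tumor became the highest library for 49 of 77 with total counts. The full order varied, and the most frequent one, in 24 members, ran from monoculture over tumor and co-culture to spheroid. With TMM scaling, the highest level of a member was 1.83 times its lowest in the median, from 1.35 times for Rplp0 to 2.43 times for Rpl4.

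Levels of different genes can be compared only per length of transcript. On that scale, Rplp1, an acidic protein of the ribosomal stalk that recruits translation factors, was the highest member in the monoculture with 2507 CPM per kilobase, in the co-culture with 4063 and in the tumor with 3549. In the spheroid Rpl13a led with 3504 CPM per kilobase, followed by Rplp1 with 3344. The median member had 295 CPM per kilobase in the monoculture, 473 in the co-culture, 448 in the spheroid and 446 in the tumor. The length was that of a single annotated transcript of each gene, such as 5179 bases for Rps15a with its 390 coding bases. These ranks depend on that choice of transcript.

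In the stalk, Rplp0 had the same order of libraries as Rplp1, and Rplp2 departed from it in the tumor and the spheroid. Rplp0, the base of the stalk and a common reference gene in quantitative PCR, had 2058 CPM in the monoculture, 2781 in the co-culture, 2125 in the spheroid and 2229 in the tumor. With TMM scaling, its highest level was 1.35 times its lowest, the smallest such ratio of the 77. Rpl7l1, with 202.7 to 274.0 CPM, varied nearly as little. Over the scalings, the log2 ratio of co-culture to monoculture ran from 0.40 to 0.55 for Rplp0 and from 0.20 to 0.35 for Rpl7l1. Rplp1 had 1251, 2028, 1669 and 1771 CPM in the same order. Rplp2, its partner in the stalk, had 278.4, 413.0 and 428.7 CPM in the cultures but 209.4 CPM in the tumor. The log2 ratio of tumor to monoculture was thus -0.41 for Rplp2 (interval -0.43 to -0.39) and 0.50 for Rplp1. Under 4 other scalings, the value for Rplp2 lay between -0.41 and -0.16. Over the scalings, the log2 ratio of spheroid to co-culture lay between -0.03 and 0.06 for Rplp2. It lay between -0.47 and -0.38 for Rplp0 and between -0.37 and -0.27 for Rplp1.

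The proteins that signal failed assembly differed from each other in the cultures. Rpl5 had 256.8 CPM in the monoculture, 292.3 in the co-culture, 255.3 in the spheroid and 472.4 in the tumor, so that the tumor alone stood high. Rpl11 had 215.9, 378.5, 301.5 and 376.2 CPM and was lowest in the monoculture. Mdm2, the ubiquitin ligase that both bind, had 202.9 CPM in the monoculture, 101.0 in the co-culture, 47.26 in the spheroid and 65.83 in the tumor.

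Among members of the small subunit with known roles, Rps20, Rps14, Rps3 and Rps19 lay above the monoculture in all 3 other libraries. Rps20, a protein of the head of the small subunit, had 378.4 CPM in the monoculture, 704.3 in the co-culture, 900.9 in the spheroid and 566.0 in the tumor. Its log2 ratio of 1.25 in the spheroid (interval 1.24 to 1.27) was the highest of all members there with 1 CPM added. Rps14, which is needed to mature 18S RNA, had 750.2, 1267, 1597 and 1227 CPM. Rps3, which lines the entry of the mRNA channel, had 1417, 2162, 2220 and 2039 CPM. Rps19, the gene most often mutated in Diamond-Blackfan anemia, had 344.6, 584.3, 501.4 and 442.9 CPM. Rpsa, known also as a laminin receptor, had 1139, 1553, 1203 and 1612 CPM, and its value in the spheroid was close to that in the monoculture. Rps27a, which is made as a fusion with ubiquitin, had 97.48, 189.0, 134.7 and 175.8 CPM. Rps6, the substrate of S6 kinase, had 441.1, 548.1, 397.4 and 659.5 CPM and was one of those lowest in the spheroid.

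Rpl13a had the highest ratio of spheroid to co-culture with 1 CPM added. This protein can leave the ribosome and silence mRNAs in myeloid cells. Its level was 1924 CPM in the monoculture, 2848 in the co-culture, 3668 in the spheroid and 2142 in the tumor. Its log2 ratio of spheroid to co-culture was 0.37, and that of Rps20 was 0.35.

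Among members averaging 10 CPM or more, those lowest in the spheroid all had long coding sequences. Coding length ran from 75 bases for Rpl41 to 1257 bases for Rpl4, with a median of 468. All 9 such members (Rpl3, Rpl4, Rpl5, Rpl6, Rpl7, Rpl7l1, Rps3a1, Rps4x and Rps6) were among the 15 with more than 700 coding bases. This limit was chosen after the values had been seen. Rpl30, with 345 coding bases and a mean of only 2.609 CPM, was also lowest in the spheroid. Rpl4, which forms part of the exit tunnel, had 1391 CPM in the monoculture, 1338 in the co-culture, 796.2 in the spheroid and 1933 in the tumor. Its log2 ratio of spheroid to monoculture was -0.80 (interval -0.82 to -0.79) and that of spheroid to tumor -1.28. Rpl3, which reaches toward the peptidyl transferase center, had 804.9, 973.0, 555.0 and 1079 CPM and a log2 ratio of -0.54 to the monoculture. Rps4x, on the X chromosome, had 782.5, 941.2, 606.1 and 1432 CPM. In these 3 genes the spheroid was lowest and the tumor highest.

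The other 6 long members did not share this order. Rps2 had 1897 CPM in the monoculture, 3126 in the co-culture, 2630 in the spheroid and 1424 in the tumor. Rpl8 had 1753, 2862, 2701 and 1429 CPM. Both were thus lowest in the tumor, and Rpl7a, Rplp0, Rps3 and Rpsa were lowest in the monoculture.

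Across the 76 members with a coding length and at least 10 CPM, Spearman's correlation of length with the log2 ratio to the monoculture was -0.69 in the co-culture, -0.54 in the spheroid and -0.28 in the tumor. These describe genes of the same libraries, which are not replicates. Members of up to 700 bases had median log2 ratios of 0.81, 0.73 and 0.64, and all 61 of them were above the monoculture in both the co-culture and the spheroid. The 15 longer members had 0.31, -0.14 and 0.50. The correlation had the same sign in other genes. Over 11986 of them it was -0.39, -0.40 and -0.23, and over the 5526 of these with at most 1300 coding bases, a range like that of the members, it was -0.18, -0.18 and -0.15. The medians of the 11986 for up to 700 bases and for more were 0.26 and -0.06 in the co-culture, 0.43 and -0.03 in the spheroid and 0.21 and -0.26 in the tumor. Short members lay above short genes in general, by 0.55, 0.30 and 0.43 on the log2 scale. Long members lay 0.37 and 0.76 above long genes in the co-culture and the tumor and differed from them by -0.11 in the spheroid. The long genes had no upper limit of length, whereas the longest of these members had 1257 coding bases. Lengths were thus not matched within the classes. Levels were not matched either: these members averaged at least 10 CPM, and the other genes at least 1 CPM. What made the libraries differ by length was not tested.

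**Figure D3:**
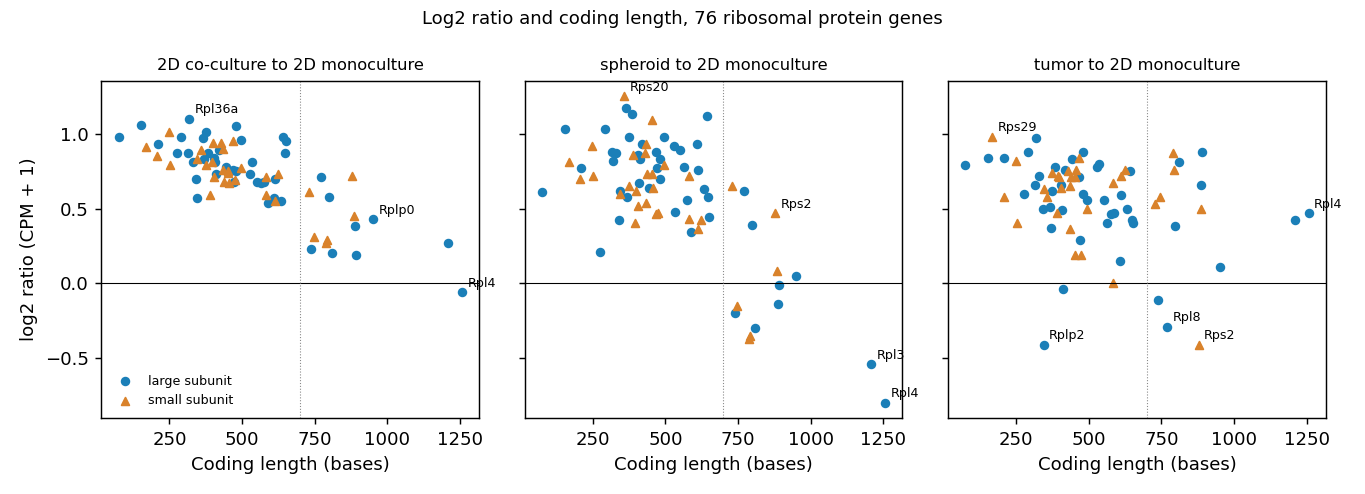
Log2 ratio to the 2D monoculture (vertical axis, CPM + 1) against coding length in bases (horizontal axis) for 76 ribosomal protein genes, with circles for the large and triangles for the small subunit and a dotted line at 700 bases. In the spheroid, the genes below 0 all lie right of the line, down to Rpl4 at -0.80. Rplp0, Rpl5 and Rpsa lie so near 0 there that their sign changes with the scaling, as does that of Rpl4 in the co-culture and those of Rpl28 and Rpl7l1 in the tumor.

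GC content also moved with the libraries. Of the 77 members averaging 10 CPM or more, the 9 lowest in the spheroid had GC contents of 42.7% to 51.9%. The 4 of them lowest in the tumor, Rpl28, Rpl8, Rplp2 and Rps2, had 52.6% to 58.0%. The 64 lowest in the monoculture covered 40.6% to 60.8%. Over 12383 other genes with at least 1 CPM, Spearman's correlation of GC content with the log2 ratio to the monoculture was 0.49 for the spheroid and -0.39 for the tumor. Over the 77 members it was -0.09 and -0.30. Spearman's correlation of their mean level (log2 CPM) with that ratio was -0.5 in the co-culture, -0.33 in the spheroid and -0.34 in the tumor. The part of GC content in the levels of these genes was not tested beyond the correction given above, and that of mean level in their ratios was not tested.

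Among the 7 paralogs, 3 differed strongly between libraries, each by far more than its canonical gene. Rpl39l, a paralog of Rpl39 that is best known from testis, had 1 read in the monoculture, 1155 in the co-culture, 28 in the spheroid and 275 in the tumor. Its canonical gene had 13816, 23329, 27194 and 28242 reads. The share of Rpl39l in the reads of the pair was 4.72% in the co-culture (exact interval 4.46 to 4.99), 0.964% in the tumor (0.854 to 1.08), 0.103% in the spheroid (0.0684 to 0.149) and 0.00724% in the monoculture (0.000183 to 0.0403). Both coding sequences have 153 bases without the stop codon, of which 85.0% are identical. They are shown because their 23 differences, in capitals, separate the reads of the pair; the coordinates are those of the genes in GENCODE on GRCm38.

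Rpl39 (chrX:37082520-37085402, minus strand): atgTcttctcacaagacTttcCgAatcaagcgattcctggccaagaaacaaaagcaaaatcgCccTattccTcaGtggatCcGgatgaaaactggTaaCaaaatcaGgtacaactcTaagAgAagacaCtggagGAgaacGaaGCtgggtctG
Rpl39l (chr16:10170226-10174911, plus strand): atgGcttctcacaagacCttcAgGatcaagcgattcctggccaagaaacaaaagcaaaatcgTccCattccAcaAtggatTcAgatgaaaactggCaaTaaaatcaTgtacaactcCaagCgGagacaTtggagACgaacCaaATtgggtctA

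No stretch of 150 bases of either transcript was found in another annotated transcript. Relative to the single read of the monoculture, the ratio of co-culture to monoculture was 1440 (log2 10.49, interval 8.01 to 15.79). The co-culture also held more RNA of the fibroblast markers than the other cultures, with 683 CPM against 19.7 and 37.4 CPM, and the part of fibroblast RNA in the level of Rpl39l was not tested. Rpl39l had 10.1 CPM in the co-culture and 1.69 CPM in the tumor, where the fibroblast markers summed to 3200 CPM. The methods name only B16F10 cells for the injection into mice, so the tumor's fibroblast RNA need not come from NIH/3T3 cells. Its part in the level of Rpl39l was not tested either.

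Rpl3l, the form of Rpl3 made in skeletal muscle and heart, had 23 reads in the monoculture, 14 in the co-culture, 34 in the spheroid and 1296 in the tumor, which was 0.734% of the pair's reads there (interval 0.695 to 0.775) and at most 0.045% elsewhere. The tumor stood alone. Its log2 ratio to the monoculture was 5.63 (interval 5.04 to 6.29). Skeletal muscle markers moved with it. All 12 were more than 2-fold higher in the tumor than in the monoculture (14.8% of the expressed genes were). In the monoculture, 4 of the 12 were at 0. The part of muscle RNA in this result was not tested.

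Rps4l, annotated as a transcribed processed pseudogene, had 1 read in each culture and 1182 in the tumor, or 0.506% of the reads of Rps4l and Rps4x. The annotated gene overlaps Tmtc1, which had 25 reads in the monoculture, 9 in the co-culture, 5 in the spheroid and 601 in the tumor. Reads of the pair cannot be told apart where the genes overlap, since the counting is not stated to use strand. The ratio of tumor to monoculture rests on 1 read and was 1040 (log2 10.02, interval 7.54 to 15.32).

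The other 4 paralogs differed less between libraries. Rpl22l1, the partner of Rpl22, had 26.1% of the pair's reads in the monoculture, 27.5% in the co-culture, 26.8% in the spheroid and 22.6% in the tumor. In the spheroid, its log2 ratio to the monoculture was 1.17 and that of Rpl22 was 1.13. Rpl7l1 had 24.1%, 24.5% and 25.4% in the cultures and 14.3% in the tumor, where Rpl7 had 1293 CPM against 734.9 in the monoculture and Rpl7l1 had 216.5 against 233.7 CPM. Rpl32l, annotated as a processed pseudogene, held between 3.05% and 3.74% of the reads of its pair. It overlaps Map7, which had 2937, 1307, 2429 and 1429 reads in the order of the libraries above, while Rpl32l had 3808, 6133, 8182 and 7393.

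Rps27l, which p53 is known to activate, held between 97.9% and 99.0% of the reads of its pair, and few reads were counted on Rps27. Rps27l itself had 218 CPM in the monoculture, 378 in the co-culture, 359 in the spheroid and 287 in the tumor. Trp53, the gene of p53, had 159.6, 232.3, 252.4 and 47.44 CPM.

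**Figure D4:**
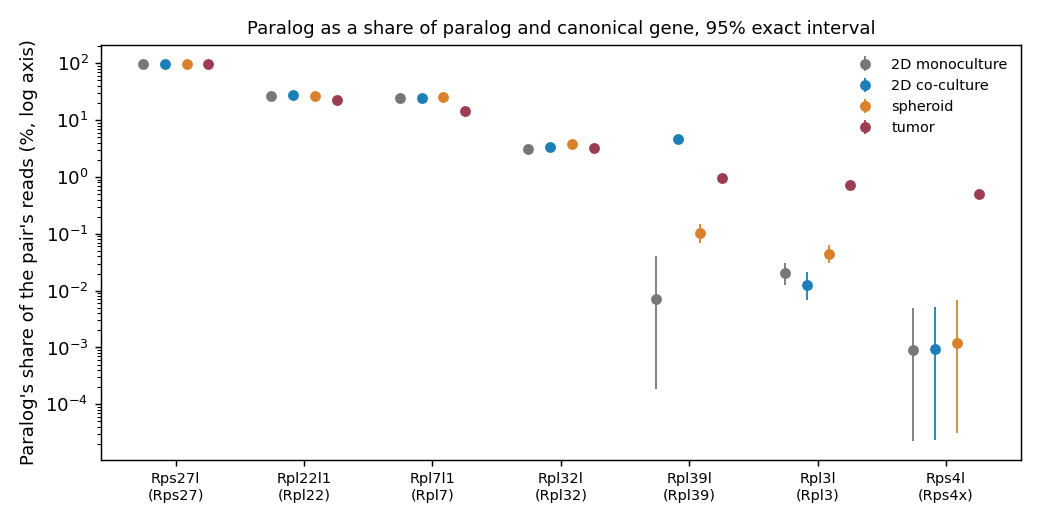
Share of each paralog in the reads of the paralog and its canonical gene (%, log axis) for 7 pairs and 4 libraries, with 95% exact intervals. Rpl39l is highest in the co-culture at 4.72%, and Rpl3l and Rps4l are highest in the tumor at 0.734% and 0.506%, and Rpl7l1 is lowest in the tumor at 14.3%, against 24.1% to 25.4% in the cultures.

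Some canonical genes had far fewer reads than the rest. Rps27 had 443, 672, 1041 and 474 reads in monoculture, co-culture, spheroid and tumor, and 98.0% of the 150-base stretches of its transcript also occur in other annotated loci. Its coding sequence of 252 bases is identical to that of Rps27rt, whose row has no reads. Rpl30 had 1405 reads in all 4 libraries together, Rpl34 had 5315 and Rpl26 had 1. Rows of copies, by contrast, held many: Rpl14-ps1 had 399364 reads and Rpl37rt had 282965 over the 4 libraries. How reads that fit several genes were counted is not given in the sources used here, so the levels of members with close copies are uncertain. Of the 84 members, 16 had no 150-base stretch in another locus and 17 had more than 50% of them there, with a median of 22.65%. Without those 17, the median log2 ratios to the monoculture stayed within 0.2 of the values above.

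The rest of the translation machinery differed from the ribosomal proteins in its ratios. Fau, Rack1 and Rpl36al, which encode ribosomal proteins that the symbol rule missed, were above the monoculture in all 3 other libraries. Fau had log2 ratios of 0.84 in the co-culture, 0.87 in the spheroid and 0.66 in the tumor. Rpl36al, a close relative of Rpl36a, had 0.81, 0.72 and 0.73. Rack1, a scaffold protein on the head of the small subunit, had 0.33, 0.55 and 0.51. The 78 mitochondrial ribosomal proteins, which are encoded in the nucleus and serve the mitochondrial ribosome, had medians of 0.40, 0.39 and 0.12. They were higher than in the monoculture for 76, 68 and 42 of 78, against 50.8%, 53.7% and 44.6% of the expressed genes. Most of them are short, with at most 700 coding bases in 50. Of the expressed genes that short, members left out, 72.7%, 77.3% and 61.3% were higher, with medians of 0.26, 0.43 and 0.21. The list's median was thus above that of short genes in the co-culture only. Across the 78, Spearman's correlation of coding length with the log2 ratio was -0.45, -0.27 and -0.41. The part of length in these values was not tested.

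Other mRNAs with TOP motifs, which encode mainly elongation and initiation factors, had medians of 0.40, 0.16 and 0.12. Of the 20, 17 were above the monoculture in the co-culture (50.8% of the expressed genes were), 11 in the spheroid (53.7%) and 12 in the tumor (44.6%). The count for the spheroid was thus near that of genes in general. Eef1a1, the elongation factor that brings aminoacyl-tRNA to the ribosome, had 9077 CPM in the monoculture, 5560 in the co-culture, 4143 in the spheroid and 10770 in the tumor. Eef2, the factor that moves the ribosome along the mRNA, had 5285, 5513, 7268 and 2137 CPM. The pair thus went opposite ways in spheroid and tumor. Gas5, a host of small nucleolar RNAs whose transcript carries a TOP motif, had 204.9, 469.1, 341.6 and 253.5 CPM.

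Genes of ribosome assembly and RNA polymerase I were low in the spheroid. Of 35, 18 were more than 2-fold lower than in the monoculture (17.9% of the expressed genes were) and none more than 2-fold higher (11.2%), with a median log2 ratio of -1.11 (-1.22 to -0.99 over the scalings). All 35 were lower in the spheroid than in the co-culture, whereas 48.7% of the expressed genes were higher. The median of the 35 was -0.88. Against the monoculture, the median was -0.03 in the co-culture, where its sign changed with the scaling, and -0.24 in the tumor (-0.24 to 0.0 over the scalings). Ncl, the nucleolar protein nucleolin, had 910.0 CPM in the monoculture, 410.7 in the co-culture, 135.7 in the spheroid and 1146 in the tumor. Polr1a, the largest subunit of RNA polymerase I, had 195.6, 106.1, 29.7 and 54.87 CPM. Fbl, which methylates ribosomal RNA, had 105.6, 179.6, 110.3 and 97.38 CPM, with the spheroid near the monoculture. Coding length moved with these values too. The 35 genes had a median of 1740 coding bases, and Spearman's correlation of length with the log2 ratio of spheroid to monoculture was -0.73 across them.

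Among 17 regulators with at least 1 CPM, the median log2 ratio to the monoculture was 0.18 in the co-culture, 0.12 in the spheroid and -0.58 in the tumor. Myc, which drives transcription of ribosome genes, had 43.27 CPM in the monoculture, 153.3 in the co-culture, 73.67 in the spheroid and 40.63 in the tumor. Mtor had 104.2, 54.29, 35.24 and 29.4 CPM. Larp1, which binds TOP motifs, had 383.5, 520.6, 432.6 and 127.1 CPM. Eif4ebp1, an inhibitor of cap-dependent translation, had 304.3, 358.6, 757.6 and 151.2 CPM.

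**Figure D5:**
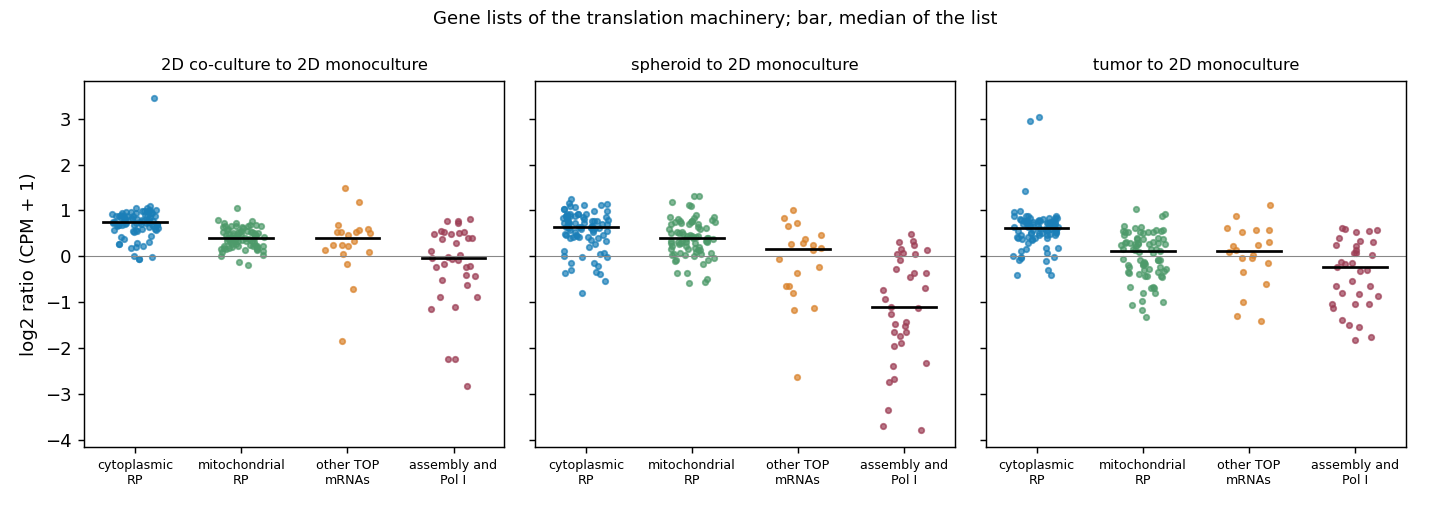
Log2 ratios to the 2D monoculture (vertical axis, CPM + 1) of every gene in 4 lists of the translation machinery, 84 cytoplasmic ribosomal proteins, 78 mitochondrial ribosomal proteins, 20 other TOP mRNAs and 35 genes of ribosome assembly and RNA polymerase I, with a bar at each median. The cytoplasmic ribosomal proteins have the highest median in each panel, and the assembly genes have the lowest, at -1.11 in the spheroid. Under other scalings the assembly median changes sign in the co-culture and reaches 0.0 in the tumor.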

How the data were processed

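The authors deposited 1 table of raw read counts per gene for 4 libraries. Per the labels, mRNA was enriched with oligo-dT beads and libraries were sequenced in pairs of 150 bases, and the submitters' processing notes name Trimmomatic, STAR, featureCounts and mm10. Columns were matched to conditions by label. CPM values used TMM factors of edgeR, between 0.908 and 1.16, computed in R; other steps used Python 3.11.15, pandas 2.3.3, numpy 2.4.6 and scipy 1.17.1. Levels are TMM-scaled CPM, log2 ratios of lists use 1 CPM added, and single-gene intervals come from exact binomial intervals of the counts without it. A gene counted as measured at a mean of at least 1 CPM. With 1 library per condition, edgeR gave scaling factors only and no test was made, and "called" means past 2-fold. The ratio script was tested on simulated data.

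Coding length, GC content and shared 150-base stretches came from GENCODE transcripts on GRCm38, and start-site windows from RefSeq. Named genes are the paralogs with their canonical genes, stalk and signaling members fixed by name, the 3 highest and 3 lowest ratios of the comparisons, and genes of the lists. Members, lists and tests were chosen with earlier results of these data known. Lists were mitochondrial ribosomal proteins, other TOP mRNAs, assembly and RNA polymerase I, regulators, and markers of melanocytes, skeletal muscle, myeloid, lymphoid, endothelial, fibroblast, adipocyte and keratinocyte cells. The lymphoid, endothelial, adipocyte and keratinocyte markers summed to 11.5, 401, 796 and 1.11 CPM in the tumor and to at most 0.999, 333, 1.28 and 0.769 CPM in the cultures. Eng alone had 270.4 to 328.2 CPM of the endothelial sum in the cultures and 92.38 CPM in the tumor. Of the 10 endothelial markers, 9 were more than 2-fold higher in the tumor than in the monoculture (14.8% of the expressed genes were). The remaining 1 was more than 2-fold lower (18.2%). The summary of a short list of further ribosomal proteins is not reported here. Alternatives were other scalings (total counts, DESeq2 size factors, upper quartile, TMM without the members), pseudocounts, folds, filters and a correction for GC content and length.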

Additional observations from a re-analysis of the deposited data

How the results depend on the processing

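Leaving out a library ends its comparisons. No paired analysis was possible because no condition holds more than 1 sample. Values below that differ from the report by more than 0.2 (log2), or 1.5 times for counts, are given, and the cause of the differences was not tested. Median log2 ratios to the monoculture, for co-culture, spheroid and tumor, were 0.46, 0.19 and 0.17 with the GC and transcript length correction, 0.45, 0.16 and 0.28 with coding length, and 0.47, 0.18 and 0.18 or 0.48, 0.17 and 0.31 when the classes came from genes other than the members, which were chosen after seeing the data, as were all coding length corrections. The tumor's was 0.85 with total counts and 0.86 with the upper quartile. Spheroid to tumor turned to -0.23 with total counts and to -0.19 and -0.26 with the coding length corrections, co-culture to tumor turned to -0.08 with total counts, and spheroid to co-culture was -0.34 with coding length classes from other genes.

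Counts of members more than 2-fold higher than the monoculture, for co-culture, spheroid and tumor, were 21, 18 and 24 with the upper quartile. Total counts gave 5 for the spheroid and 21 for the tumor, and DESeq2 size factors gave 10 for the co-culture and 5 for the tumor. The GC correction gave 3 for the co-culture and 4 for the spheroid with transcript length, and 1, 0 and 1 with coding length. Without paralogs the tumor had 0. At 1.5-fold the counts were 64, 50 and 45, with 1 lower in the spheroid. For spheroid against tumor, members higher were 0 with total counts, 1 with the upper quartile, 4 and 1 with the transcript and coding length corrections, 1 among members with few shared stretches and 9 at 1.5-fold, and members lower were 11 with total counts, 4 without paralogs and 11 at 1.5-fold. For co-culture against tumor, members higher were 1 with total counts, 1 with coding length and 9 at 1.5-fold, and members lower were 1 with coding length, 0 without paralogs and 5 at 1.5-fold. For spheroid against co-culture, members lower were 1 without paralogs and 7 at 1.5-fold.

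The SD among members was 0.30 for tumor to monoculture and 0.33 for co-culture to tumor with members of at least 10 CPM. With 0.1 CPM added it was 0.70 for co-culture to monoculture, 0.91 for tumor to monoculture and 1.0 for both spheroid to tumor and co-culture to tumor. Without paralogs, the shares of reads were 3.38%, 5.15%, 4.44% and 5.50% for monoculture, co-culture, spheroid and tumor, and without the other genes with most reads 4.47%, 6.78%, 5.93% and 7.09%.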
